A study of Mus musculus with 8 samples.

Results

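The RING and PCGF genes encode the catalytic heart of Polycomb repressive complex 1 (PRC1). Rows of the deposited tables were taken by gene symbol for 10 genes: the RING paralogues Rnf2 (Ring1b) and Ring1 (Ring1a), the PCGF paralogues Bmi1, Pcgf1, Pcgf2, Pcgf3, Pcgf5 and Pcgf6, and the variant-complex subunits Kdm2b and L3mbtl2. They account for 13 of 19353 RefSeq transcripts and for 10 of 17551 symbols. Ring1, Pcgf6 and L3mbtl2 fell in the libraries labelled Ring1b KO across 4 cell contexts, and the whole-transcript level of Rnf2 itself did not pass the test. Bmi1 was higher in the libraries labelled KO in all 4 contexts, just outside the threshold of the chosen test.

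The libraries come from lineage-negative bone marrow cells of C57BL/6 mice, a preparation enriched in haematopoietic stem and progenitor cells. Groups labelled Ring1b KO were treated with 4-hydroxytamoxifen (OHT) and the groups labelled Ring1b WT with ethanol, for 72 h. All 8 groups are labelled Ring1a-/- and Cdkn2a-/-, so the WT groups also lack Ring1a and the INK4A/ARF tumour suppressor locus by label. Cells were transduced with the homeobox gene HOXA9, with the leukaemia fusion gene PML-RARa or with the leukaemia fusion gene MLL-AF9, or were labelled as not transduced (NT); the NT table heads its columns with the word Empty. Each group is 1 library of bulk RNA, and the labels give neither the deleted stretch of Rnf2 nor the Cre nor the number of mice behind a library. KO and WT below name those labels. No group received OHT while labelled Ring1b WT, so effects of the drug and of the loss of Ring1b cannot be told apart.

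PRC1 places a single ubiquitin on histone H2A. A RING subunit (Ring1b or Ring1a) supplies the ligase and always pairs with a PCGF subunit, and the PCGF paralogue decides which complex forms. Complexes built on Bmi1 or Pcgf2 take up CBX and PHC proteins and are called canonical. Complexes built on Pcgf1, Pcgf3, Pcgf5 or Pcgf6 are called variant: the Pcgf1 complex is brought to unmethylated CpG islands by Kdm2b, and the Pcgf6 complex contains L3mbtl2, E2f6 and the Mga-Max pair. Bmi1 is known for its part in the self-renewal of blood stem cells and for repressing Cdkn2a.

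The sequences around the annotated start sites of the 3 members that fell and of Bmi1 are shown because these 4 genes carry the changes described below. They are RefSeq sequences of the build GRCm38.p6, from 250 bases before to 50 bases after the start, written 5′ to 3′ on the gene's own strand. Capitals mark each CG dinucleotide, the sequence bound by the CXXC domain of Kdm2b.
Ring1, chr17:34024631-34024930, minus strand: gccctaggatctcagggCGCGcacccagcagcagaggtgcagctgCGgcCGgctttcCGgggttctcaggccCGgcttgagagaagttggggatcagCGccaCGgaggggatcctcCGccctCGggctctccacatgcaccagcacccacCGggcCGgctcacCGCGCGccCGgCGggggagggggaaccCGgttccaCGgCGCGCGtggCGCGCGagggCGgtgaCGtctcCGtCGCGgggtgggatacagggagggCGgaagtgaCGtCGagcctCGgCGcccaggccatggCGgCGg
Pcgf6, chr19:47050857-47051156, minus strand: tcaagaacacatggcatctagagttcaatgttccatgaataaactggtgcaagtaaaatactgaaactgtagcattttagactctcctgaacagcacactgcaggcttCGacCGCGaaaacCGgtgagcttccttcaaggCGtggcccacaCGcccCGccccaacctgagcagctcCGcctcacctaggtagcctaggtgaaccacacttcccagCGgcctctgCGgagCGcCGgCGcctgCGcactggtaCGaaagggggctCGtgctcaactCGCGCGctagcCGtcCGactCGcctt
L3mbtl2, chr15:81663639-81663938, plus strand: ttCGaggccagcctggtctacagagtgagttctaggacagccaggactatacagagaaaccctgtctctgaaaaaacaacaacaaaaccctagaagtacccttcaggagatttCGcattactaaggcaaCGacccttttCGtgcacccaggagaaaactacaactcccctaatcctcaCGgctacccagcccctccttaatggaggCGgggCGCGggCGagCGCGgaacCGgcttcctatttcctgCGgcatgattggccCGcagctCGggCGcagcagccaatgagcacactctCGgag
Bmi1, chr2:18676768-18677067, plus strand: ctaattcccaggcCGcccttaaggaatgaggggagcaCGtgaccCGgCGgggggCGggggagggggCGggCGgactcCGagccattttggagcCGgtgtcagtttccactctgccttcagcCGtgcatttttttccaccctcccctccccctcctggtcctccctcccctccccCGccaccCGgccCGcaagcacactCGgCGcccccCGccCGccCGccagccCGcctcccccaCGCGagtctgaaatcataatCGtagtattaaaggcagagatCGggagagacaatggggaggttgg
The windows held 37 CG dinucleotides at Ring1, 22 at Pcgf6, 17 at L3mbtl2 and 23 at Bmi1. Over 27025 genes with such a window the median was 7, and 31.9% of windows had 17 or more. The E-box CACGTG, which Mga-Max and other factors bind and which itself holds a CG, occurred in the Bmi1 window, starting at base 36, and in none of the other 3. It was found in 7.24% of all windows, read on both strands. The E2F sequences GCGGGAA and GCGCGAA, read on both strands, occurred in none of the 4 windows and in 6.06% of all. These are matches of letters only.

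Values are the authors' normalised read counts per transcript, and the total of recovered reads per library lay between 4226751 and 6998223. Markers of the lineages that the enrichment removes were scarce: Cd79a, Cd3e and Cd3g stayed under 10 in every library. Among stem and progenitor markers, Gata2 averaged 2706 in KO and 2202 in WT libraries and did not pass the test described below (limma adjusted p = 0.47). The transcript read for Kit, the stem cell factor receptor, averaged 16.4 in KO and 10.6 in WT libraries. That is a single transcript under the mean of 20, so it was not tested and was not read as low expression of the gene. Other cell states moved with the KO and WT labels. The summed level of 12 macrophage markers ranged from 10559 to 21005 in KO libraries and from 1157 to 3476 in WT libraries, and 11 of the 12 rose. That of 10 proliferation markers ranged from 5095 to 9722 in KO and from 13462 to 19235 in WT libraries, and 8 of 9 tested fell. Stem and progenitor markers summed to 2394 to 6227 in KO and 3320 to 6386 in WT libraries, with 3 of 7 tested lower and none higher. The 3 were Myb (mean 29.8 in KO and 110 in WT libraries), Erg (242 and 487) and Cebpa (1159 and 1867). In bulk RNA, fewer cells of a type and less RNA per cell cannot be told apart. The part of these shifts in the changes of the PRC1 genes was not tested.

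**Figure D1:**
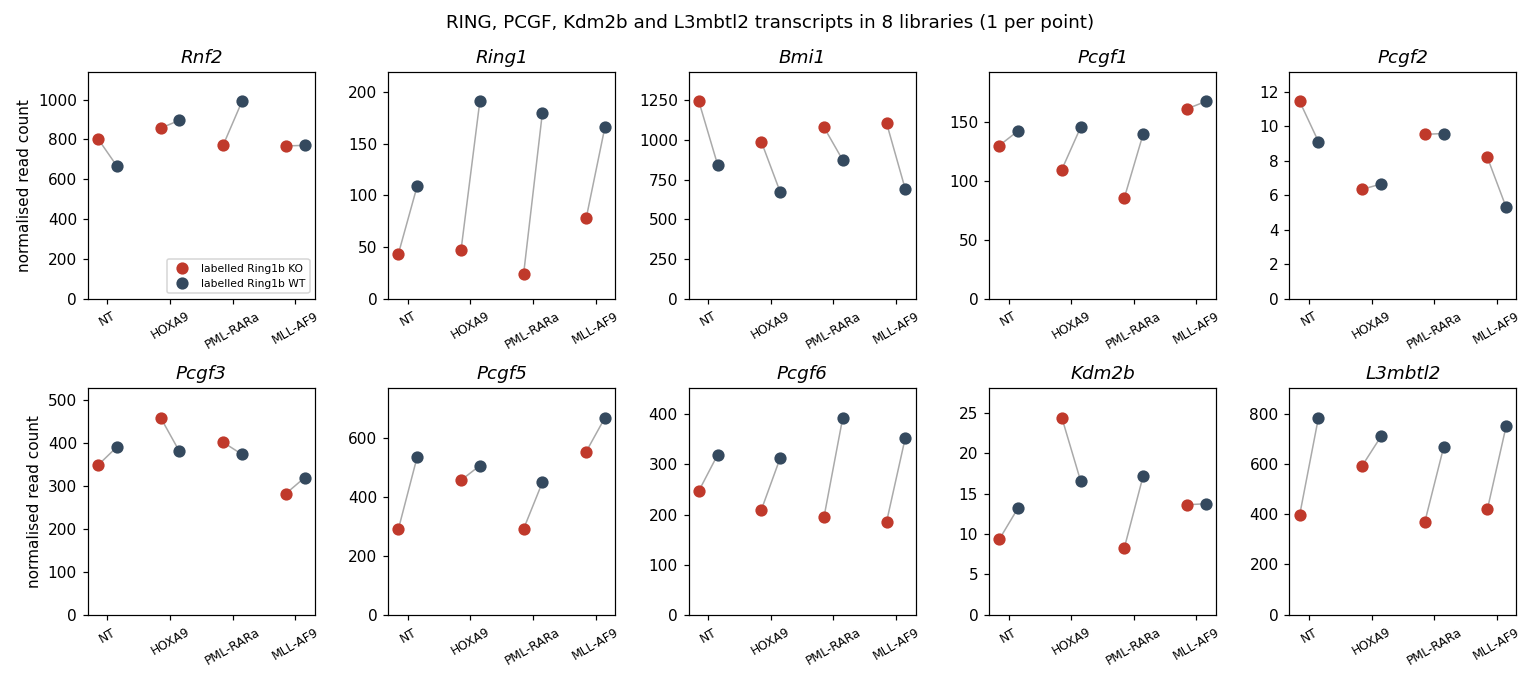
Normalised read count (vertical axis, linear, from 0) of each of the 10 genes in each of the 8 libraries, by context, with the library labelled KO at the left of each pair and WT at the right. Ring1, Pcgf6 and L3mbtl2 lie lower in KO in every context, Bmi1 lies higher in every context, and Pcgf2 and Kdm2b stand below 25.

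The first question was how each subunit gene differed between KO and WT over the 4 contexts. Each context gave 1 ratio on the log2(value + 1) scale, and limma tested the mean of the 4 ratios for the 10599 transcripts whose mean over the libraries reached 20. The standard error (SE) given with each mean is limma's moderated one, and the threshold is a Benjamini-Hochberg adjusted p of 0.05 over all 10599. No context has a second library of either genotype, and a p therefore reflects how much the 4 ratios scatter. Of the 10 genes, 8 were tested, since no transcript of Pcgf2 or Kdm2b reached the mean of 20. Among the 8, 3 fell, none rose and 5 did not pass, where 13.9% of all transcripts tested passed, 7.48% as lower and 6.4% as higher. Their median log2 ratio was -0.40, against -0.03 over all transcripts tested. On the recovered reads, both edgeR and DESeq2 called the same 3 genes lower and called Bmi1 higher, where edgeR called 21.1% of transcripts (9.05% lower and 12% higher) and DESeq2 29.5% (12.9% lower and 16.7% higher).

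Of the RING genes, Rnf2 (NM_011277), the gene the design deletes, kept its reads. It stood at 802 in KO and 666 in WT libraries of NT, and at 856 in KO and 896 in WT of HOXA9. In PML-RARa it stood at 771 in KO and 990.4 in WT, and in MLL-AF9 at 767 in KO and 769.8 in WT. The groups overlap, with the KO library above WT in NT and below it in the other 3 contexts. The mean log2 ratio was -0.04 ± 0.14 (SE, n = 4 contexts, limma adjusted p = 0.85), with a 95% interval of -0.41 to 0.33. Over the contexts, KO libraries were less spread than WT libraries, at 799 ± 41.1 against 830.5 ± 142 (SD, n = 4 each). A whole-transcript count can retain reads from the undeleted part of a gene, so this value does not check the KO label.

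Ring1 (NM_009066), the other RING paralogue, had reads in all libraries although every group is labelled Ring1a-/-. In NT it stood at 43.6 in KO, against 109 in WT. In HOXA9 it stood at 47.1 in KO, against 191 in WT. In PML-RARa the values were 23.8 in KO and 179.9 in WT, and in MLL-AF9 77.8 in KO and 166 in WT. No KO library reached any WT library. The mean log2 ratio was -1.81 ± 0.33 (SE, n = 4 contexts, limma adjusted p = 0.040, lower in KO in 4 of 4), or 0.284 times the WT level. These values rest on 20 to 230 reads a library. As for Rnf2, a whole-transcript count can retain reads from the undeleted part of a gene. The values therefore do not check the Ring1a-/- label and do not show a working Ring1a. The contexts differed in size beyond counting error: the ratio of KO to WT was 0.132 in PML-RARa, with an exact 95% interval of 0.0790 to 0.210, and 0.468 in MLL-AF9, with 0.339 to 0.637, while NT (0.40, from 0.275 to 0.569) and HOXA9 (0.246, from 0.179 to 0.334) lay between. These intervals cover counting error alone. In the authors' deposited table, the PML-RARa comparison of Ring1 carries an unadjusted p-value of 0.013, and no other of the 52 member rows lies below 0.05.

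The nearest protein-coding genes on both sides of Ring1 were read for comparison, by their order in the RefSeq annotation of GRCm38.p6. On one side, H2-K1, whose reads other class I genes could share, had a mean log2 ratio of 0.29 ± 0.12 (SE, n = 4 contexts, limma adjusted p = 0.16). Slc39a7, on the other side, had -0.11 ± 0.10 (limma adjusted p = 0.46). H2-Ke6 had a mean log2 ratio of -0.53 ± 0.21 (SE, n = 4 contexts, limma adjusted p = 0.14) and Vps52 0.03 ± 0.11 (limma adjusted p = 0.85). None of the 4 passed, and no annotated gene overlaps Ring1 there. Per kb of transcript, the level of Rnf2 was 11.8 times that of Ring1 for NT, 11.7 times for HOXA9, 20.9 times for PML-RARa and 6.35 times for MLL-AF9 in KO libraries, against 3.93, 3.02, 3.54 and 2.98 times in WT libraries in the same order. The groups do not overlap in this ratio, but Ring1 alone already separates them, so this is no separate result. With every group labelled Ring1a-/-, it compares transcript reads only and does not give the balance of RING subunits in PRC1.

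Bmi1 (NM_007552), a PCGF subunit of canonical PRC1, stood at 1243 in KO and 843 in WT libraries of NT. In HOXA9 it stood at 987 in KO and 672 in WT, in PML-RARa at 1079 in KO and 873 in WT, and in MLL-AF9 at 1106 in KO and 688 in WT. Every KO library exceeded every WT library, which 8.28% of all transcripts tested share. The mean log2 ratio was 0.53 ± 0.12 (SE, n = 4 contexts, limma adjusted p = 0.0503, higher in KO in 4 of 4), with a 95% interval of 0.22 to 0.83, so it missed the threshold narrowly. edgeR gave an adjusted p of 0.022 and DESeq2 one of 1.8e-04, and limma one of 0.0455 when 10 was added to each value and 0.0454 when ratios were centred. The ratio was 1.47 for NT and for HOXA9, 1.61 for MLL-AF9 (exact 95% interval 1.45 to 1.79) and 1.24 for PML-RARa (1.13 to 1.36). The interval of PML-RARa overlaps those of NT and HOXA9 and lies below that of MLL-AF9. Commd3, the gene next to Bmi1 on the chromosome, had 0.43 ± 0.11 (SE, n = 4 contexts, limma adjusted p = 0.059).

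Pcgf2 (Mel18), which can take the place of Bmi1, was barely measured. Its leading transcript NM_009545 ranged from 6.33 to 11.4 in KO and from 5.29 to 9.57 in WT libraries, on 5 to 11 reads. The second transcript, NM_001163307, ranged from 1.04 to 6.33 in KO and from 3.31 to 10.5 in WT libraries. Summed over both, the ratio of KO to WT was 1.0 for NT, 1.17 for HOXA9, 0.711 for PML-RARa and 0.892 for MLL-AF9, and every exact 95% interval spans 1. Symbols with several transcripts had few reads throughout these tables, where the median level per kb was 2.6, compared with 33.2 for single-transcript symbols, and 27.1% of their transcripts reached the mean of 20, compared with 60.5%. The low values of Pcgf2 and Kdm2b, the members with several transcripts, therefore cannot be read as low expression.

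Among the PCGF subunits of variant PRC1, Pcgf6 (NM_027654) fell. It stood at 247 in KO and 319 in WT libraries of NT, and at 209.9 in KO and 313 in WT of HOXA9. In PML-RARa it stood at 195 in KO and 393 in WT, and in MLL-AF9 at 186 in KO and 354 in WT. All KO libraries lie below all WT libraries. The mean log2 ratio was -0.72 ± 0.15 (SE, n = 4 contexts, limma adjusted p = 0.048, lower in KO in 4 of 4). The counting intervals set NT (ratio 0.774, from 0.656 to 0.912) apart from PML-RARa (0.496, from 0.412 to 0.596) and MLL-AF9 (0.525, from 0.427 to 0.642), though limma's test of NT against the transduced contexts passed for none of the 8 genes. Of its tested neighbours on the chromosome, Taf5 fell (-1.05 ± 0.21, mean log2 ratio ± SE, limma adjusted p = 0.043), and Ina had 1.48 ± 0.45 (limma adjusted p = 0.085).

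L3mbtl2 (NM_145993), a chromatin compactor with MBT repeats that sits in the same complex as Pcgf6, fell to a like extent. It stood at 397 in KO and 783 in WT libraries of NT, and at 593 in KO and 709 in WT of HOXA9. In PML-RARa it stood at 369 in KO and 665 in WT, and in MLL-AF9 at 419 in KO and 749.7 in WT. The groups do not overlap, and HOXA9 shows the smallest gap. The mean log2 ratio was -0.73 ± 0.16 (SE, n = 4 contexts, limma adjusted p = 0.0497, lower in KO in 4 of 4). The HOXA9 ratio of 0.836 (exact 95% interval 0.754 to 0.927) lay above those of NT (0.507), PML-RARa (0.555) and MLL-AF9 (0.559), the highest of whose upper bounds was 0.64. With ratios centred on the median of each context, L3mbtl2 lost its call (limma adjusted p = 0.051). The reads of L3mbtl2 could include some of Chadl, which overlaps it in the annotation, since the library kit does not mark strand; Chadl ranged from 21.8 to 55.2 in KO and from 8.27 to 48.8 in WT libraries.

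Ring1, Pcgf6 and L3mbtl2 share groups that do not overlap, with KO lower, which 12.6% of all transcripts tested share. No member passed in any limma fit that left out 1 context (adjusted p from 0.066 to 0.14 for these 3), where limma called 26 transcripts without NT and 0 without HOXA9, PML-RARa or MLL-AF9. With no filter on low values none of the 3 passed either (adjusted p from 0.057 to 0.087).

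Pcgf5 (NM_029508), whose complex ubiquitinates H2A widely, was lower in KO in all 4 contexts but did not pass. It stood at 292 in KO and 537 in WT libraries of NT, and at 457 in KO and 506 in WT of HOXA9. In PML-RARa it stood at 292 in KO and 449.7 in WT, and in MLL-AF9 at 554 in KO and 669 in WT. The groups overlap, since the KO libraries of MLL-AF9 and HOXA9 exceed the WT library of PML-RARa. The mean log2 ratio was -0.48 ± 0.16 (SE, n = 4 contexts, limma adjusted p = 0.11). Within NT alone the ratio was 0.544 (exact 95% interval 0.471 to 0.626).

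Pcgf1 (NM_197992), the PCGF partner of Kdm2b, was also lower in KO in 4 of 4 without passing. It ranged from 85.7 in PML-RARa to 161 in MLL-AF9 over the KO libraries, and from 139.7 in PML-RARa to 167 in MLL-AF9 over the WT libraries. Its mean log2 ratio was -0.32 ± 0.15 (SE, n = 4 contexts, limma adjusted p = 0.19), and the counting intervals in NT and MLL-AF9 span a ratio of 1. Pcgf3 (NM_172716), which forms complexes much like those of Pcgf5, ranged from 282 to 459.7 in KO and from 319.8 to 391 in WT libraries. It had a mean log2 ratio of 0.01 ± 0.13 (SE, n = 4 contexts, limma adjusted p = 0.97), with a 95% interval of -0.33 to 0.35. The KO library was above WT for Pcgf3 in HOXA9 and PML-RARa and below it in NT and MLL-AF9.

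Being lower in KO in all 4 contexts was shared by 5 of the 8 tested genes, against 26.5% of all transcripts, and being higher in all 4 by Bmi1, against 22.9%. Kdm2b (NM_013910 leading), the CpG-binding demethylase, ranged from 8.33 to 24.4 in KO and from 13.2 to 17.2 in WT libraries. The other 2 transcripts, NM_001003953 and NM_001005866, ranged from 1.04 to 5.46 and from 1.04 to 2.71 in KO libraries, and from 4.96 to 10.8 and from 0.827 to 3.18 in WT libraries. Summed over the 3, Kdm2b held 11 reads in KO and 23 in WT of NT, 35 and 36 in HOXA9, 12 and 31 in PML-RARa, and 15 and 25 in MLL-AF9. The ratio of these sums in PML-RARa was 0.481 with an exact 95% interval of 0.225 to 0.964, and in the other 3 contexts the interval spans 1. The values of 1.04 in KO and 0.827 in WT are the lowest entry of their library, which may stand for 0 reads. The KO sums of PML-RARa and MLL-AF9 also hold such an entry, that of NM_001005866.

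**Figure D2:**
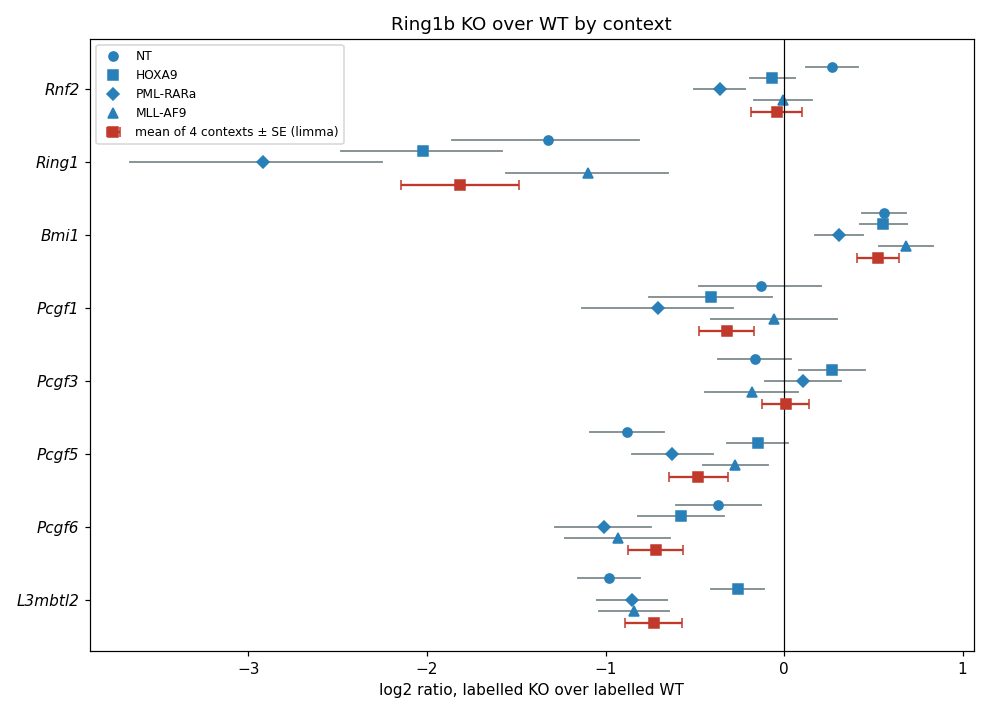
Log2 ratio of KO over WT (horizontal axis) for the 8 tested genes: blue symbols give each context without a pseudocount, grey lines the exact 95% counting interval, and red squares limma's mean over the 4 contexts on the log2(value + 1) scale with its SE. Ring1, Pcgf6 and L3mbtl2 lie left of 0 and Bmi1 right of 0 in every context, while Rnf2 and Pcgf3 straddle it.

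Within a single context there is 1 library a group and no test. A difference of 2-fold or more, counted where the higher library reached 20, was seen for Ring1 in all 4 contexts and by Pcgf6 in PML-RARa, both lower in KO. KO was lower by that rule for 8.76% of transcripts in NT, 6.39% with HOXA9, 13.7% with PML-RARa and 16% with MLL-AF9. No gene of the 10 was higher in KO by that rule in any context, where 13.8% of transcripts were in NT, 9.13% with HOXA9, 9.06% with PML-RARa and 14.6% with MLL-AF9.

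The mixture of PCGF paralogues was then described per kb of transcript, with lengths from GENCODE M21, on which the shares depend. Bmi1 made up 40.4% of the summed PCGF level in KO against 24.5% in WT libraries of NT, 31.8% against 21.03% in HOXA9, 40.6% against 25.9% in PML-RARa and 31.2% against 18.5% in MLL-AF9. Pcgf6 made up 8.70% to 13.4% in KO libraries and 15.4% to 19.4% in WT libraries. Neither range overlaps between the groups. The values of Bmi1 and Pcgf6 alone already separate the groups, so this is no separate result. Pcgf5 took 22.6% to 37.2% in KO and 31.8% to 42.8% in WT libraries, and Pcgf1 13.4% to 18.8% in KO and 17.1% to 18.9% in WT. Pcgf3 held 3.71% to 7.05% in KO and 4.0% to 5.56% in WT libraries, and the leading transcript of Pcgf2 stayed under 1% in all libraries. Since the low values of Pcgf2 cannot be read as low expression, its share cannot be read either, and the shares describe the mixture of the other paralogues only. Shares sum to a fixed total, so a higher share of one paralogue lowers the others.

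**Figure D3:**
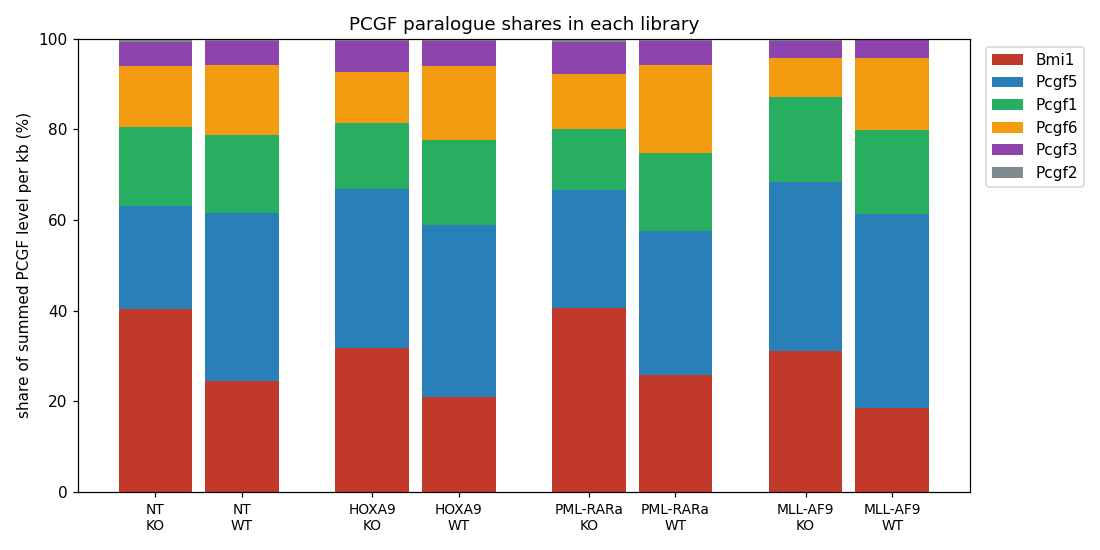
Share of each PCGF paralogue in the summed PCGF level per kb (vertical axis, percent) in each library, with the KO library left of WT in each context. Bmi1 takes 31.2% to 40.6% in KO libraries and 18.5% to 25.9% in WT libraries.

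In order of level per kb, KO libraries had Bmi1 first (mean 307, range 275 to 346), then Pcgf5 (264, from 193 to 367) and Rnf2 (253, from 243 to 271). The range of Pcgf5 overlaps those of Bmi1 and Rnf2, while that of Bmi1 lies above that of Rnf2. Pcgf1 (140.3, from 98.9 to 186), L3mbtl2 (127, from 106 to 170.0) and Pcgf6 (97.0, from 85.9 to 115) followed, each overlapping its neighbour but below Rnf2. Pcgf3 (48.4, from 36.6 to 59.6) and Ring1 (23.6, from 11.7 to 38.2) came last of the genes with a single transcript, with ranges that overlap. In WT libraries the order was Pcgf5 (358, from 298 to 444), Rnf2 (263, from 211 to 313), Bmi1 (214, from 187 to 243), L3mbtl2 (208, from 191 to 225), Pcgf1 (172, from 161 to 193) and Pcgf6 (159.7, from 145 to 182), with each neighbouring pair overlapping. Ring1 (79.4, from 53.7 to 93.9) stood below these and above Pcgf3 (47.6, from 41.5 to 50.8), with gaps on both sides. Both orders depend on the lengths used, which run from 866 bases for Pcgf1 to 7708 for Pcgf3. Before division by length, the mean in WT libraries was 830 for Rnf2, 769 for Bmi1 and 727 for L3mbtl2, above the 541 of Pcgf5.

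The second question was whether the ratio of KO to WT differed between NT cells and transduced cells. None of the 8 tested genes passed limma's test of the difference between the NT ratio and the mean of the 3 transduced ratios, and none had an unadjusted p under 0.05. Over all 10599 transcripts 0 passed (0% of those tested), and 573 had an unadjusted p under 0.05. The lowest unadjusted p of a member was 0.20, for Pcgf5, whose log2 ratio was -0.88 in NT and averaged -0.35 in the transduced contexts. That difference was -0.53 ± 0.34 (SE, limma). The test rests on 1 NT pair.

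The third question was whether the subunit genes differed by context. The fit used both libraries of each context with the genotype as a block, and the 3 comparisons with NT share the NT libraries. None of the 8 genes passed limma's F test over the contexts, with a lowest adjusted p of 0.31, where 2.19% of all transcripts passed; none had an unadjusted p under 0.05, and edgeR called none. Pcgf5 was 0.62 ± 0.23 higher on the log2 scale in MLL-AF9 than in NT (SE, n = 2 libraries each, limma adjusted p = 0.27). Ring1 was 0.71 ± 0.47 higher in MLL-AF9 and 0.45 ± 0.47 higher in HOXA9 than in NT (limma adjusted p = 0.49 and 0.65). Bmi1 stood at -0.33 ± 0.17 in HOXA9 over NT (limma adjusted p = 0.36). For HOXA9 over NT 2.21% of all transcripts passed, for PML-RARa over NT 0.0189% and for MLL-AF9 over NT 2.87%, and no member was among them.

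**Figure D4:**
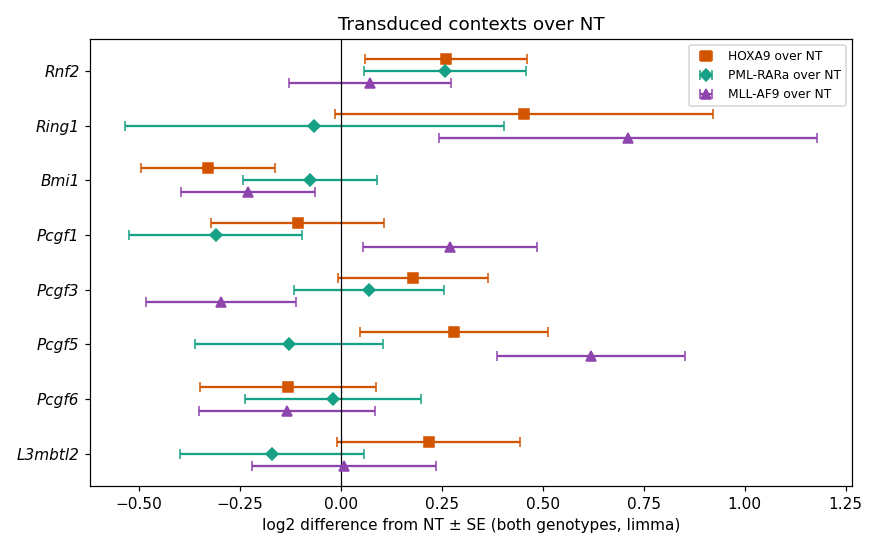
Log2 difference of HOXA9, PML-RARa and MLL-AF9 from NT (horizontal axis) for the 8 tested genes, fitted over both genotypes by limma, with bars for the SE. Ring1 at 0.71 and Pcgf5 at 0.62, both in MLL-AF9, lie farthest from 0, and none passed the test.

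The partner genes of PRC1 were read in the same limma fit. Of 41 listed, 33 were tested, and none passed in either direction, where 13.9% of all transcripts did. Unadjusted, 8 had a limma p under 0.05, and the share of all transcripts with such a p is not given here. By edgeR, 4 were called lower and 1 higher, where it called 9.05% of all transcripts lower and 12% higher. Those not tested were Phc3, which was not found by symbol, and Phc1, Phc2, Yaf2, Bcor, E2f6, Max and Asxl2. The latter stayed under the mean of 20, which was not read as low expression. The median log2 ratio over the 33 was -0.10, against -0.03 over all transcripts tested. The canonical list had a median of -0.54 over 6 tested genes, none of them a PHC gene. Cbx6 was chosen as an example after its values were seen. Cbx6, a chromodomain reader of H3K27me3, averaged 631 in KO and 949 in WT libraries (-0.61 ± 0.15, limma adjusted p = 0.061, edgeR adjusted p = 0.037). The list was not uniform: Cbx8 had 0.24 ± 0.21 (limma adjusted p = 0.44, higher in KO in 3 of 4) and Scmh1 -0.01 ± 0.18 (limma adjusted p = 0.97).

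The list of the Pcgf6 complex had a median of -0.30 over 7 tested genes, which do not include E2f6 or Max. Its chromodomain proteins Cbx1 (-0.52 ± 0.12, limma adjusted p = 0.051, edgeR adjusted p = 0.047) and Cbx3 (-0.40 ± 0.11, limma adjusted p = 0.069, edgeR adjusted p = 0.047) were lower in KO in 4 of 4 contexts. Mga, the scaffold of that complex, had 0.02 ± 0.36. For the Pcgf1 complex the median was -0.11 over 3 tested genes, for the Pcgf3 and Pcgf5 complexes 0.02 over 7, and Rybp, the subunit that replaces CBX in variant complexes, had 0.09 ± 0.16 (limma adjusted p = 0.70). The ubiquitin-conjugating enzymes that hand ubiquitin to RING ligases had a median of 0.22 over 4 tested genes. The enzymes and cofactors that remove ubiquitin from H2A had a median of -0.29 over 5, among them Asxl1 (-0.50 ± 0.14, limma adjusted p = 0.070).

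**Figure D5:**
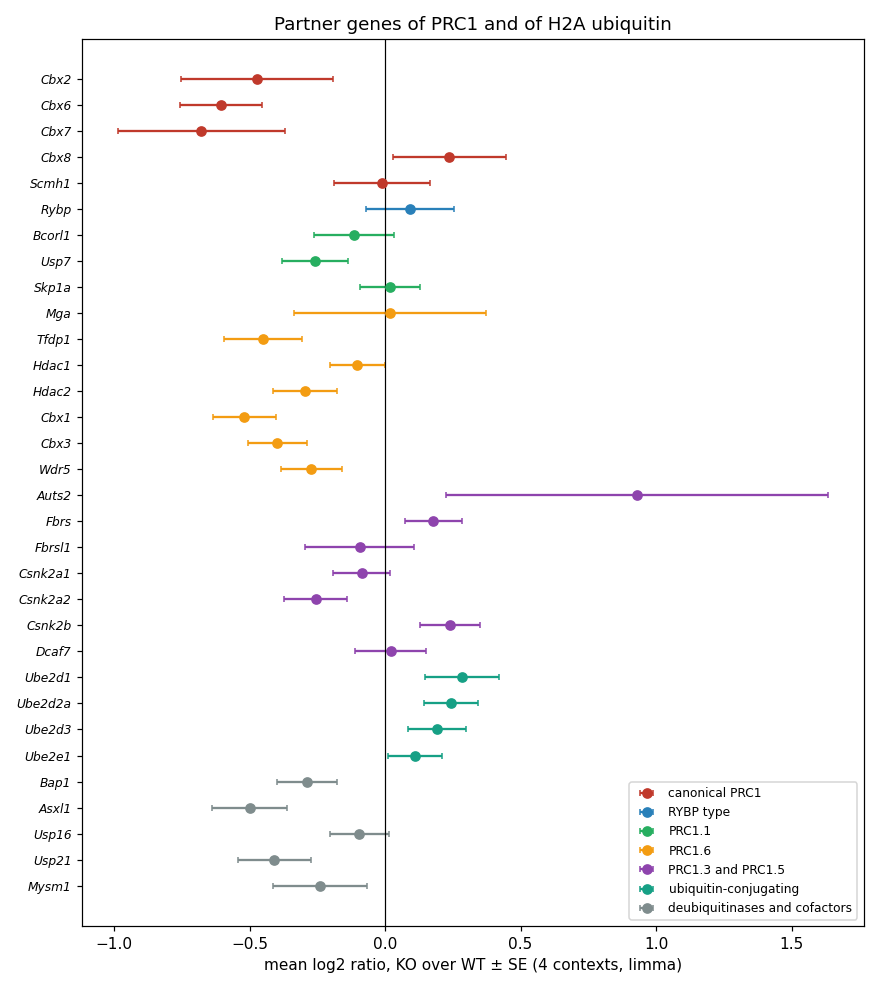
Mean log2 ratio of KO over WT with SE (horizontal axis, 4 contexts, limma) for the tested partner genes but 1, coloured by complex. Cbx7 at -0.68 and Cbx6 at -0.61 lie lowest of those shown, the ubiquitin-conjugating enzymes lie right of 0, and no gene passed the test.

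Transcripts whose values ran most like those of Rnf2, Ring1 and Bmi1 over the 8 libraries were found by Pearson correlation of log2(value + 1), as a description of libraries that share their contexts and genotypes. For Ring1 they were Wibg (r = 0.982), Preb (0.979) and Ing2 (0.970). Of these Ing2 fell, with a mean log2 ratio of -0.70 ± 0.14 (SE, limma adjusted p = 0.044). For Bmi1 they were Pip4k2c (r = 0.992), Abca5 (0.990) and Ppp2r5b (0.983), all of which rose. Ring1 and Bmi1 each separate KO from WT libraries, so the direction of transcripts picked for likeness to them follows from the choice. For Rnf2 they were 2310022B05Rik (r = 0.991), Lrfn1 (0.978) and Itpka (0.976), none of which passed the test.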

How the data were processed

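mRNA libraries of 8 samples, 1 per context and genotype, were read from 4 deposited tables. Per the submitters' processing notes, TopHat and DESeq were used with mm9; the read counter is not given in the sources used here. The signal values analysed are base means, that is reads normalised by the authors, 1 per RefSeq transcript and library, per the file headers. The deposited ratio is the authors' fold change and the log2 column its log2. The deposited p-value is unadjusted and compares 1 library with 1 library. Dividing each column by its lowest value gave whole reads for 100% of values (tolerance 0.02), and 15.1% to 20.0% of transcripts stand at that lowest entry, which may stand for 0 reads. The NT columns are headed Empty.

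Tests used limma 3.58.1 (R 4.3.3) on log2(value + 1) over transcripts with a mean of at least 20, two-sided, with the context, or for contexts the genotype, as a block, and Benjamini-Hochberg adjustment over all of them. edgeR 4.0.16 (quasi-likelihood) and DESeq2 1.42.0 were run on recovered reads; the fits were tested on simulated data. Ratio intervals are exact conditional binomial ones. All 10 genes are reported, and the 41 partners by count, since the rule named only those past the test and none passed; the partner examples and chromosomal neighbours in the text were chosen after their values were seen. By name, 1 partner and 1 lineage marker are not reported here. For Rnf2, Ring1 and Bmi1 the 3 transcripts with the highest correlation are named. Lengths are those of the longest GENCODE M21 transcript matched by RefSeq identifier. The genes, lists and tests were chosen with earlier results of these data known.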

Additional observations from a re-analysis of the deposited data

How the results depend on the processing

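The call for Ring1, Pcgf6 and L3mbtl2 held with a pseudocount of 10, without the context as a block, in edgeR and in DESeq2, and was lost for L3mbtl2 alone with centred ratios. With no filter on low values 354 transcripts and 0 of the 10 genes were called. edgeR called 2235 transcripts and DESeq2 3130. Leaving out 1 pair of libraries, limma called 0 to 26 transcripts and 0 of the 10 genes. The ratio of Rnf2 changed sign in edgeR (0.0445), in DESeq2 (0.0255) and without 1 pair (-0.144 to 0.0656), and that of Pcgf3 without 1 pair (-0.0795 to 0.070); neither passed in any of these fits, and the cause was not tested. With a fold of 1.5 in place of 2, 3 of 8 genes were apart in NT, in place of 1. In PML-RARa 5 of 8 were apart, in place of 2, and in MLL-AF9 4 of 8, in place of 1. HOXA9 kept 1, of 9 genes. Of all transcripts, 39.6% in NT, 40.7% in PML-RARa, 49.8% in MLL-AF9 and 30.9% in HOXA9 were that far apart in either direction. No transcript of Pcgf2 or Kdm2b had more than 27 reads in a library.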
